A study of Mus musculus with 12 samples.

Results

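Cell division in the olfactory mucosa was read out from 35 genes of S phase and mitosis, taken from the table by their symbols. Of these, 32 were found among the 39395 genes of the table and all 32 passed the filter on low counts, as did 17320 genes in all. Mcm7, Kif11 and Prc1 were not analysed here. The 32 genes divide into 8 of S phase (Mcm2 to Mcm6, Pcna, Rrm2 and Tyms) and 24 of mitosis.

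Total RNA of the olfactory mucosa, the lining of the nasal cavity in which odorants are detected, was sequenced in 12 males aged 30 postnatal days. The groups were 6 wild-type mice and 6 mice of the genotype delta large deletion, which lack 408217 bp of chromosome 7 (102509797 to 102918014), a stretch with an enhancer of the class I odorant receptor genes. Each animal gave 1 library, and both groups were of the same mixed 129S6;C57BL/6J background, in which littermates can differ at loci other than the deletion. The labels do not say whether the deletion was carried on both chromosomes or how many founders the line had.

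In this epithelium, globose basal cells divide throughout life and replace the sensory neurons, whereas horizontal basal cells are a reserve that rarely divides. A cell that enters S phase loads the MCM helicase at replication origins and opens the DNA there, with the clamp Pcna holding the polymerases in place. Cyclin-dependent kinases then drive the condensation of chromosomes, the assembly of kinetochores and spindle, and the exit from mitosis through the anaphase-promoting complex. In whole tissue, fewer dividing cells and less RNA per dividing cell cannot be told apart.

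The libraries held 10091239 to 18612011 reads assigned to genes. Values are read counts divided by the authors' size factor for each library, called normalized counts below. The 30 genes wholly inside the deleted interval summed to 1629 to 1953 normalized counts in the wild-type animals. In the deletion animals they summed to 0 to 1.37, so the libraries matched their labels. These levels left no sign of an intact copy of the interval in any deletion animal. Markers of the labelled tissue were high in every library: 12 markers of mature olfactory sensory neurons summed to 157667 to 214736, and 14 markers of globose basal cells and immediate neuronal precursors to 18657 to 21799.8. Deletion animal 3 had the shallowest library and reads in 94.6% of the listed genes. The wild-type libraries had reads in 65.2% to 69.3% of them. Deletion animals 2, 4 and 5 also lay above that range, at 80.6%, 73.1% and 75.6%. Deletion animals 1 and 6 lay within it, at 67.2% and 67.4%. The part of this group difference in the levels of the cell cycle genes was not tested.

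The promoters of these genes are shown first, since their motifs were compared between the S phase and mitosis genes. The phases share CCAAT and E2F forms, only 7 S phase genes had a window, and a difference between the phases was not tested. RefSeq promoter windows on GRCm38.p6 run from 250 bases before to 50 bases after the transcription start, and 27 of the 32 genes had one. Mcm4, Ccna2, Tpx2, Kif20a and Aurkb were not matched. Each window was searched on both strands for TTTGAA, the core of the cell cycle homology region (CHR) through which many mitosis genes are held silent outside division, for CCAAT, the site of the NF-Y factor, and for TTGGCGC or TTCCCGC, forms of the site of the E2F factors. TTGGCGC can overlap ATTGG, the reverse of CCAAT, by sharing its letters. A match to these letters is a description and not a bound site. The 6 windows below are cut to 170 bases before and 30 after the start. Top2a, Cdk1 and Ccnb2 are shown for CCAAT together with TTTGAA, and Mcm5, Mcm6 and Mcm3 for CCAAT together with an E2F form. Capitals mark every match to the 3 motifs on either strand.
Top2a, chr11:99024160-99024359, minus strand: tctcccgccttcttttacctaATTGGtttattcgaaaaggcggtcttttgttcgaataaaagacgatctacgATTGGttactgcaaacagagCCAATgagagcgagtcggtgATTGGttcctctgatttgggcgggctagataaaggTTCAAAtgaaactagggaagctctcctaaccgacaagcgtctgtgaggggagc
Cdk1, chr10:69352883-69353082, minus strand: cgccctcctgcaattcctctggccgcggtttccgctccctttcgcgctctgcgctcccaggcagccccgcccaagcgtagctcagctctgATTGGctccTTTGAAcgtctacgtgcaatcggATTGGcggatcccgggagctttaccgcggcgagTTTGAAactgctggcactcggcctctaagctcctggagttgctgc
Ccnb2, chr9:70421525-70421724, minus strand: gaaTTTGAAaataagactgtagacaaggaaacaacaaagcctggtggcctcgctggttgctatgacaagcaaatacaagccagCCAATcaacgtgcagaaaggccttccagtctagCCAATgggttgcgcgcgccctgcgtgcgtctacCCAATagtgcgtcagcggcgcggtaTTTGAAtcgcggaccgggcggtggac
Mcm5, chr8:75109339-75109538, plus strand: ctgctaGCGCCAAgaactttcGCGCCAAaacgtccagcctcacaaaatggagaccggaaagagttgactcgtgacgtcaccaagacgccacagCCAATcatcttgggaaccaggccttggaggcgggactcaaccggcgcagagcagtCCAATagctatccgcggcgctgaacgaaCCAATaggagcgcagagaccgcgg
Mcm6, chr1:128359676-128359875, minus strand: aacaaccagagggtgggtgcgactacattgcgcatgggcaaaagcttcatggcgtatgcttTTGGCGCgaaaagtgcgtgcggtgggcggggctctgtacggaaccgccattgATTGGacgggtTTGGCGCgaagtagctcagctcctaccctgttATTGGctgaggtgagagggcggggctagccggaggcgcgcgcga
Mcm3, chr1:20820283-20820482, minus strand: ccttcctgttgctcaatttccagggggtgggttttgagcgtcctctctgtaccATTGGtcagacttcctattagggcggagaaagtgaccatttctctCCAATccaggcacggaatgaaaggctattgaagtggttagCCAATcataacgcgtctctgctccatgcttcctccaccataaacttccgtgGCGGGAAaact

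TTTGAA lay in the windows of 16 of the 27 genes (59.3%), against 5466 of 27025 RefSeq genes (20.2%). It was in 15 of 20 mitosis genes and in 1 of 7 S phase genes, Mcm2. In 14 of the mitosis genes it lay within 50 bases of the start, as it did in 5.72% of all genes and in 0 of the S phase genes. CCAAT was in 24 of the 27 windows (88.9%) against 41.1% of all genes, and it was in most genes of both phases, 6 of 7 and 18 of 20. An E2F form was in 3 of 7 S phase genes (Mcm3, Mcm5 and Mcm6) and in 3 of 20 mitosis genes (Ccnb1, Cdk1 and Mki67), against 7.79% of all genes. In the printed Ccnb2 window, 3 copies of CCAAT at positions -87, -54 and -21 are followed by TTTGAA at 5, and another TTTGAA lies at -167. Cdk1 has TTTGAA at -71 and -15, and Top2a has it at -23 on the reverse strand as TTCAAA. Mcm6 holds TTGGCGC at -109 and -46, while Mcm5 holds its reverse, GCGCCAA, at -164 and -149.

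None of the 32 genes differed between deletion and wild-type animals past the threshold. By limma, with an adjusted p under 0.05 over all 17320 genes, 0 of 32 were called in either direction, against 0.497% of all tested genes (0.052% higher in the deletion animals and 0.445% lower). By edgeR, 0 of 32 were called, against 0.0693% higher and 0.445% lower among all genes. By DESeq2, 0 of 32 were called, against 0.0866% higher and 0.473% lower. The limma adjusted p of the 32 genes lay between 0.955 and 0.990. In 0 of 32 genes did the groups fail to overlap, against 0.629% of all tested genes.

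At an unadjusted p under 0.05, limma gave 2 of 32 genes (6.25%, against 4.39% of all tested genes), Cenpe and Kif23. Both were higher in the deletion animals, where 2.02% of all genes passed in that direction and 2.37% in the other. On the recovered reads, edgeR and DESeq2 each gave 3 genes, Cenpe, Kif23 and Top2a, all higher in the deletion animals. The background for edgeR was 2.25% higher and 2.05% lower, and that for DESeq2 was 2.17% higher and 2.05% lower. In the authors' deposited table, 0 of 32 genes had an adjusted p under 0.05 and 1 had a p under 0.05, Cenpe at a log2 fold change, wild-type over deletion, of -0.14 with p = 0.0331.

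The differences were small and mostly of one sign. The log2 fold change, deletion over wild-type on the log2(value + 1) scale, was above 0 in 27 of 32 genes (84.4%), against 45.9% of all tested genes. Its median was 0.10 over the 32 genes and -0.01 over all tested genes. It ran from -0.10 for Mcm6 to 0.25 for Plk1, which is 0.935-fold to 1.19-fold. In 30 of 32 genes the 95% interval included 0. In 31 of 32 it lay within 1.5-fold either way, and the highest bound was 1.54-fold, for Plk1. The lowest bound was 0.771-fold, for Mcm6. In the plot of fold changes by role, 22 of the 24 mitosis genes were above 0, with a median of 0.13. Of the 8 S phase genes, 5 were above 0, with a median of 0.03. Whether the phases differed from each other was not tested.

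**Figure D1:**
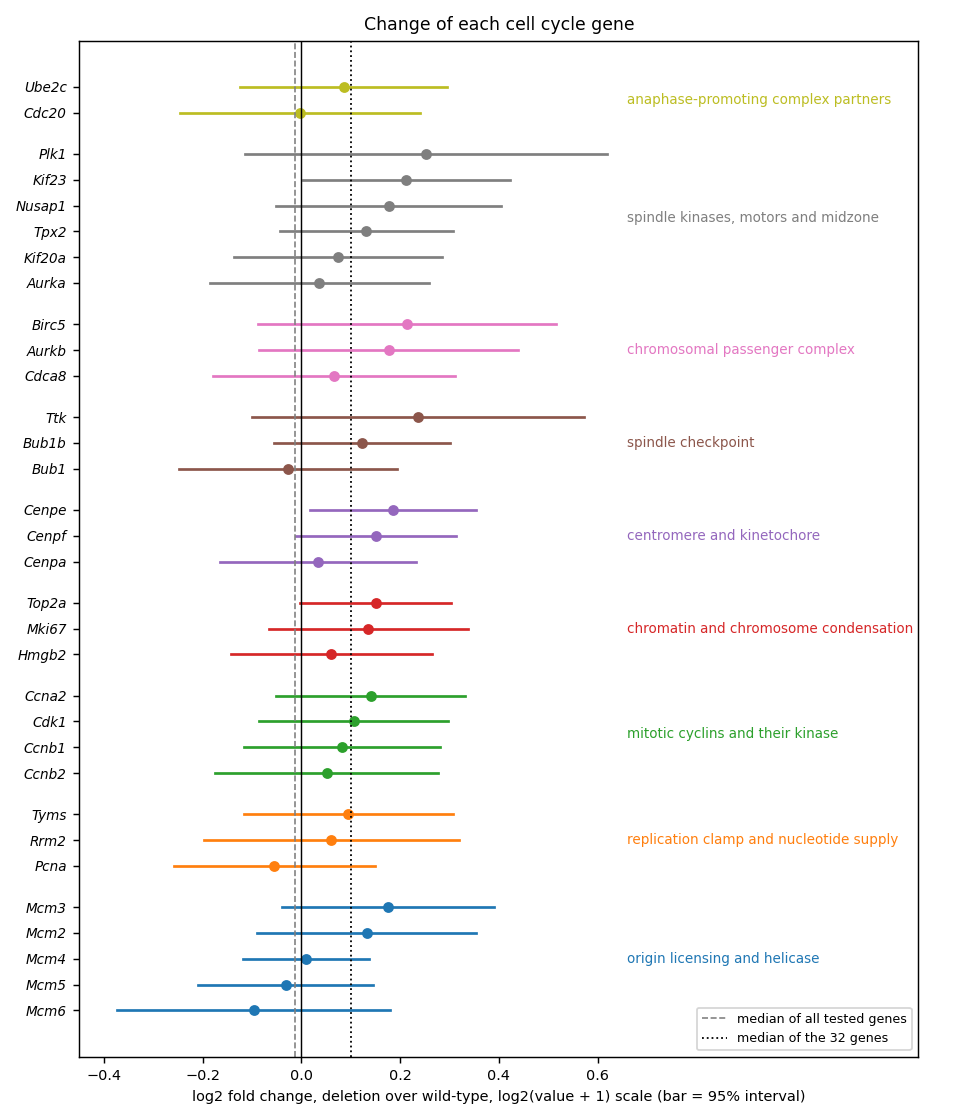
Log2 fold change, deletion over wild-type on the log2(value + 1) scale, of the 32 genes, grouped by role. Points are limma estimates and bars their 95% intervals, the dashed line is the median of all 17320 tested genes (-0.01) and the dotted line the median of the 32 genes (0.10). All intervals but those of Cenpe and Kif23 include 0.

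The spread between animals sets how small a difference could be seen. The coefficient of variation among the wild-type animals had a median of 11.04% over the 32 genes, from 3.58% for Mcm4 to 18.5% for Birc5, and the median among the deletion animals was 12.2%. The part of it that counting alone gives had a median of 7.14%. The 13703 tested genes with a mean of at least 40 normalized counts had a wild-type median of 10.7%, close to that of the cell cycle genes. The half-width of the 95% interval of a log2 fold change had a median of 0.21 over the 32 genes. Mean levels ran from 61.5 normalized counts for Ttk to 1660.3 for Top2a, and the fewest reads in any library were 39, for Ttk.

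Per kilobase of exon in the wild-type animals, the clamp Pcna was the most abundant gene at 379 ± 42.3 normalized counts (SD, n = 6), followed by the chromatin protein Hmgb2 at 318 ± 45.9. Their ranges overlapped, at 314 to 440 and 268 to 397, so their order is not fixed by these animals. Top2a at 175 ± 18.4, Mcm4 at 129.5 ± 4.64 and Mki67 at 99.8 ± 16.9 came next. The lowest were the kinesin Kif23 at 17.4 ± 1.91 and the checkpoint kinase Ttk at 11.4 ± 2.03. The median of the 32 genes on this scale was 52.0, against 61.5 over all tested genes.

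Among the 5 tested genes of origin licensing, which encode subunits of the MCM helicase, 3 were above 0 and the median log2 fold change was 0.01. Mcm4 had the highest mean normalized count of them and was also the highest per kilobase. Its normalized counts were 475, 469, 443, 477, 445 and 480.0 in wild-type animals 1 to 6 and 452, 508, 435, 499, 445 and 470.1 in deletion animals 1 to 6. The groups overlapped, with 2 deletion animals above the wild-type range and 1 below it. Mcm4 had a log2 fold change of 0.01 (SE 0.06, 95% interval -0.12 to 0.14, limma adjusted p = 0.960), the narrowest bounds of the helicase genes. Mcm3 had the smallest p of its group. It stood at 181, 164, 142, 194, 190.4 and 203 in the wild-type animals and at 168, 217, 184, 223, 198 and 220.4 in the deletion animals. Deletion animals 2, 4 and 6 lay above every wild-type animal, and wild-type animal 3 lay below the rest. Mcm3 had a log2 fold change of 0.17 (SE 0.10, 95% interval -0.04 to 0.39, limma adjusted p = 0.955). Mcm2 went from 266 ± 40.1 to 291 ± 39.4 (log2 0.13). Mcm5, at 248 ± 21.7 and 243 ± 22.7, and Mcm6, at 327 ± 54.4 and 306 ± 58.5, were slightly lower in the deletion animals, with overlapping ranges.

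Of the 3 genes of the clamp and nucleotide supply, 2 were above 0, with a median log2 fold change of 0.06. Pcna stood at 1057, 935, 851, 917, 755 and 950.5 normalized counts in wild-type animals 1 to 6 and at 697, 961, 789.8, 829, 925 and 1086 in deletion animals 1 to 6. Deletion animal 1 held the lowest value and deletion animal 6 the highest, so the deletion animals spanned the wild-type range on both sides. Pcna had a log2 fold change of -0.05 (SE 0.10, 95% interval -0.26 to 0.15, limma adjusted p = 0.955). Tyms, which makes thymidylate for DNA synthesis, had 142, 144, 139, 125, 168 and 149.5 in the wild-type animals and 147, 150.4, 144, 176, 132 and 179.6 in the deletion animals. Deletion animals 4 and 6 exceeded the wild-type range and none fell below it. Tyms had a log2 fold change of 0.10 (SE 0.10, 95% interval -0.12 to 0.31, limma adjusted p = 0.955). Rrm2, the inducible subunit of ribonucleotide reductase, was at 170.4 ± 28.6 and 177 ± 28.4.

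**Figure D2:**
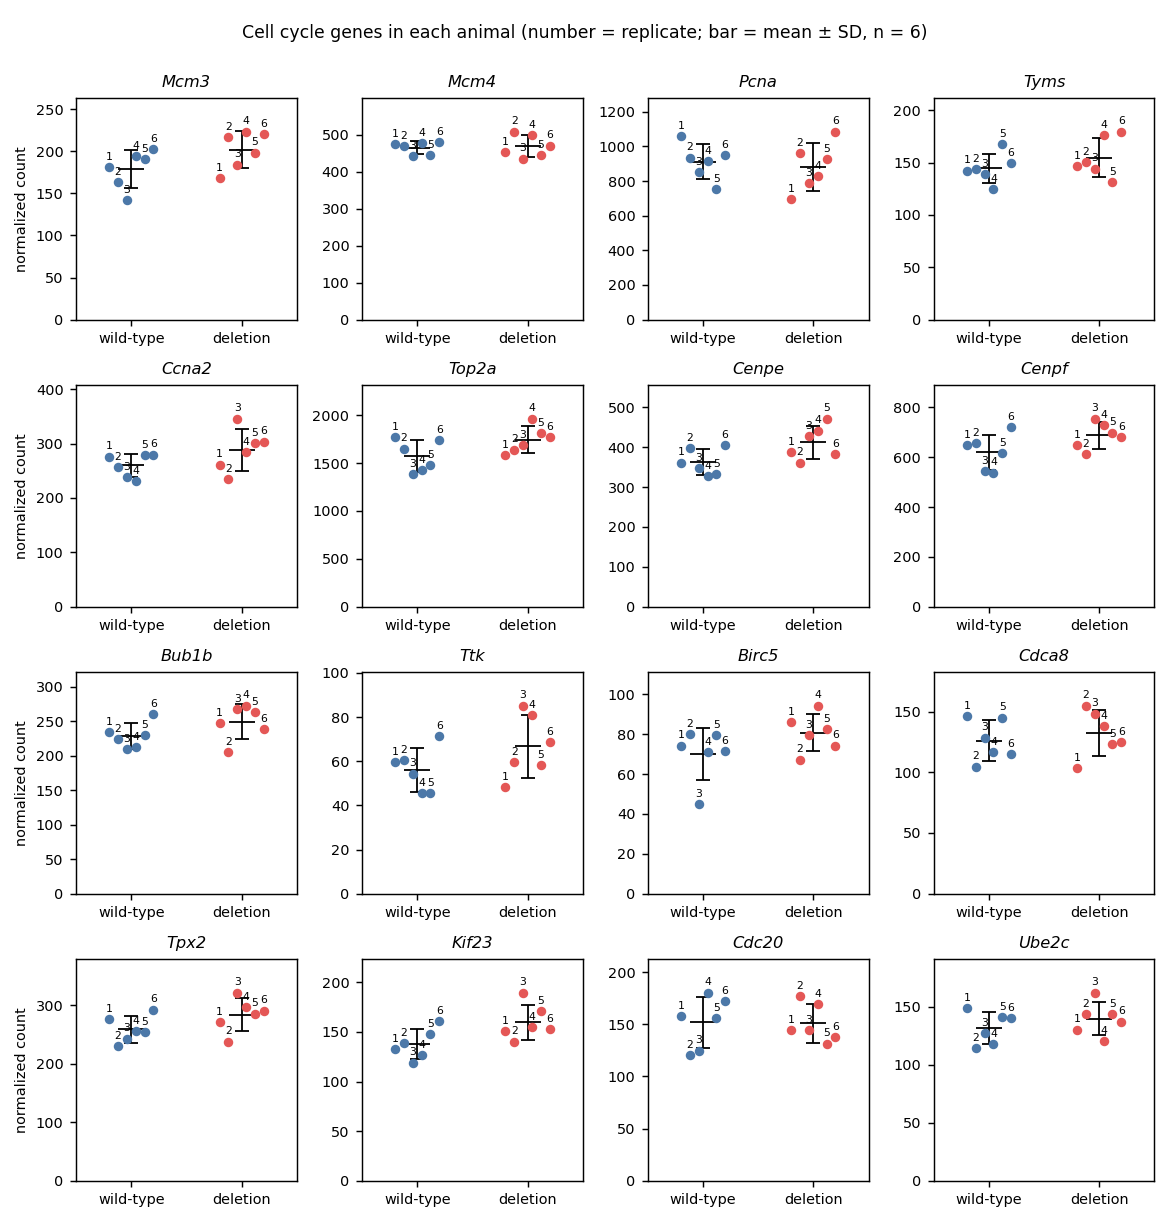
Normalized counts of the 16 genes given in full, each panel with 6 wild-type and 6 deletion animals, numbered by replicate. Bars show the mean ± SD (n = 6) and the axes start at 0. In every panel the groups overlap, for example Top2a at 1383 to 1769.6 in the wild-type animals and 1584 to 1965 in the deletion animals.

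All 4 genes of the mitotic cyclins and their kinase were above 0, with a median log2 fold change of 0.09. Ccna2, the cyclin of S phase and early mitosis, had both the highest mean normalized count of the group, with no correction for length, and the smallest p. Its normalized counts were 276, 257, 239, 232, 278 and 280.0 in wild-type animals 1 to 6 and 261, 235, 346, 284, 301 and 304 in deletion animals 1 to 6. Deletion animals 3 to 6 lay above the wild-type range, whereas deletion animals 1 and 2 lay inside it. Ccna2 had a log2 fold change of 0.14 (SE 0.09, 95% interval -0.05 to 0.33, limma adjusted p = 0.955). The kinase Cdk1 was at 210.4 ± 24.4 and 226 ± 21.0 (log2 0.11), and its B-type cyclins Ccnb1 and Ccnb2 had log2 fold changes of 0.08 and 0.05.

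Of the chromatin and condensation genes, Top2a (chr11:98992943-99024189) is the topoisomerase that untangles sister chromosomes. It had the highest mean normalized count of the 32 genes, a count not corrected for length, while Hmgb2 was higher per kilobase. Top2a stood at 1769.6, 1651, 1383, 1429, 1482 and 1740.0 normalized counts in wild-type animals 1 to 6 and at 1584, 1641, 1689, 1965, 1816 and 1774 in deletion animals 1 to 6. Deletion animals 4 to 6 exceeded the wild-type range, and wild-type animals 3 to 5 lay below every deletion animal. Top2a had a log2 fold change of 0.15 (SE 0.07, limma adjusted p = 0.955), with a 95% interval whose lower bound was just under 0 and whose upper bound was 0.30. Mki67, the proliferation marker that coats mitotic chromosomes, had a wild-type range of 766 to 1152 and a deletion range of 1011 to 1205. Wild-type animals 3 and 4, at 766 and 812, lay below all others for Mki67, and the remaining 4 lay within the deletion range. Its log2 fold change was 0.14 (95% interval -0.07 to 0.34, limma adjusted p = 0.955). Without both of these animals, a choice made after seeing the data, the log2 fold change of Mki67 was -0.03. Hmgb2, a DNA-bending protein, was at 956 ± 138 and 996 ± 136.

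Cenpe (chr3:135212537-135273611 on GRCm38), a kinesin that carries chromosomes to the spindle equator, had the smallest p of the 32 genes. Its normalized counts were 361, 397, 347, 328, 333 and 405 in wild-type animals 1 to 6 and 387, 361, 427, 441, 472 and 383 in deletion animals 1 to 6. Deletion animals 3 to 5 exceeded every wild-type animal, and the other 3 lay within the wild-type range. Cenpe had a log2 fold change of 0.19 (SE 0.08, 95% interval 0.02 to 0.35, limma adjusted p = 0.955). Cenpf, another protein of the outer kinetochore, stood at 649.9, 656, 543, 539, 618 and 720.0 in the wild-type animals and at 648, 613, 755, 730.5, 699 and 679.9 in the deletion animals. Here wild-type animals 3 and 4 were again the lowest, and deletion animals 3 and 4 the highest. Cenpf had a log2 fold change of 0.15 (SE 0.08, 95% interval -0.01 to 0.31, limma adjusted p = 0.955). Cenpa, the histone H3 variant that marks the centromere, was at 128 ± 9.17 and 132 ± 13.6.

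The spindle checkpoint delays anaphase until every kinetochore is attached. Bub1b, which is part of the inhibitor of the anaphase-promoting complex, stood at 234, 225, 210.0, 213, 229.8 and 261 normalized counts in wild-type animals 1 to 6 and at 248, 205, 268, 273, 264 and 239 in deletion animals 1 to 6. Deletion animals 3 to 5 were above the wild-type range and deletion animal 2 was below it. Bub1b had a log2 fold change of 0.12 (SE 0.08, 95% interval -0.06 to 0.30, limma adjusted p = 0.955). Ttk, the kinase that starts the checkpoint, had 59.6, 60.5, 54.4, 45.4, 45.5 and 71.4 in the wild-type animals and 48.2, 59.5, 85.2, 80.9, 58.2 and 68.6 in the deletion animals. Only deletion animals 3 and 4 exceeded the wild-type range. Ttk had a log2 fold change of 0.24 (SE 0.16, 95% interval -0.10 to 0.57, limma adjusted p = 0.955). The checkpoint kinase Bub1 was level, at 129.6 ± 10.5 and 128 ± 16.7.

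The chromosomal passenger complex corrects faulty attachments and later directs cytokinesis. Its subunit Birc5, known as survivin, stood at 74.3, 80.2, 45.0, 71.0, 79.7 and 71.4 normalized counts in wild-type animals 1 to 6 and at 86.1, 67.3, 79.7, 94.4, 82.7 and 74.3 in deletion animals 1 to 6. The 45.0 of wild-type animal 3 lay far below the other wild-type animals, and deletion animals 1, 4 and 5 lay above the wild-type range. Birc5 had a log2 fold change of 0.21 (SE 0.14, 95% interval -0.09 to 0.52, limma adjusted p = 0.955), and it was 0.09 without wild-type animal 3. Cdca8, which encodes borealin, had 147, 105, 128, 116, 145 and 115 in the wild-type animals and 104, 155, 148, 138, 123 and 125 in the deletion animals. Deletion animal 1 was the lowest of the 12 and deletion animal 2 the highest. Cdca8 had a log2 fold change of 0.07 (SE 0.12, 95% interval -0.18 to 0.31, limma adjusted p = 0.955). The kinase of the complex, Aurkb, was at 75.2 ± 10.2 and 85.0 ± 10.2 (log2 0.18).

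All 6 tested genes of the spindle kinases, motors and midzone were above 0, with a median log2 fold change of 0.15. Tpx2, which nucleates spindle microtubules and activates the kinase Aurka, stood at 276, 229.8, 243, 256, 255 and 292 normalized counts in wild-type animals 1 to 6 and at 271, 238, 321, 297, 286 and 291 in deletion animals 1 to 6. Deletion animals 3 and 4 exceeded the wild-type range. Tpx2 had a log2 fold change of 0.13 (SE 0.08, 95% interval -0.04 to 0.31, limma adjusted p = 0.955). Kif23 (chr9:61915905-61946774), the midzone kinesin needed for cytokinesis, had 133, 139, 119, 127, 148 and 161 in the wild-type animals and 151, 140.3, 189.5, 155, 171 and 153 in the deletion animals. Deletion animals 3 and 5 lay above the wild-type range and the other 4 within it. Kif23 had a log2 fold change of 0.21 (SE 0.10, 95% interval 0.00 to 0.42, limma adjusted p = 0.955). Plk1, the polo-like kinase, had the largest log2 fold change, 0.25, with a wide interval (-0.11 to 0.62) at a level of 63.4 ± 11.2 and 77.1 ± 20.9. Nusap1, a microtubule-bundling protein, was at 237 ± 23.6 and 270.4 ± 43.4. Aurka and the kinesin Kif20a had log2 fold changes of 0.04 and 0.07.

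The anaphase-promoting complex marks securin and cyclins for destruction. Of its 2 partners, 1 was above 0, with a median log2 fold change of 0.04. Cdc20, its activator, stood at 158, 120.2, 125, 180.4, 156 and 172 normalized counts in wild-type animals 1 to 6 and at 145, 177, 144, 169, 132 and 138 in deletion animals 1 to 6. Every deletion animal lay within the wild-type range. Cdc20 had a log2 fold change within 0.01 of 0 (SE 0.12, 95% interval -0.25 to 0.24, limma adjusted p = 0.990). The ubiquitin-conjugating enzyme Ube2c had 149, 115, 128, 118, 141 and 140.0 in the wild-type animals and 130.2, 144, 162, 120.5, 144 and 137 in the deletion animals. Deletion animal 3 alone exceeded the wild-type range. Ube2c had a log2 fold change of 0.09 (SE 0.10, 95% interval -0.12 to 0.30, limma adjusted p = 0.955).

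The same few animals recurred across genes. Wild-type animal 3 was the lowest wild-type animal in 13 of the 32 genes and the highest in 0, and wild-type animal 6 was the highest in 13. Among the deletion animals, 1 and 2 were the lowest in 10 and 9 genes, and 3 and 4 were the highest in 9 each. The median deviation of the 32 genes from the wild-type mean, on the log2(value + 1) scale, was -0.12 in wild-type animal 3 and 0.15 in wild-type animal 6. It was 0.16 in deletion animal 3 and 0.20 in deletion animal 4. The deletion animals thus lay inside or just above the spread of the wild-type animals, and the heat map of deviations shows the same. Left out in turn, wild-type animals 3 and 4 and deletion animals 3 and 4 each took the number of genes with an unadjusted limma p under 0.05 from 2 to 0, while leaving out deletion animal 2 took it to 8.

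**Figure D3:**
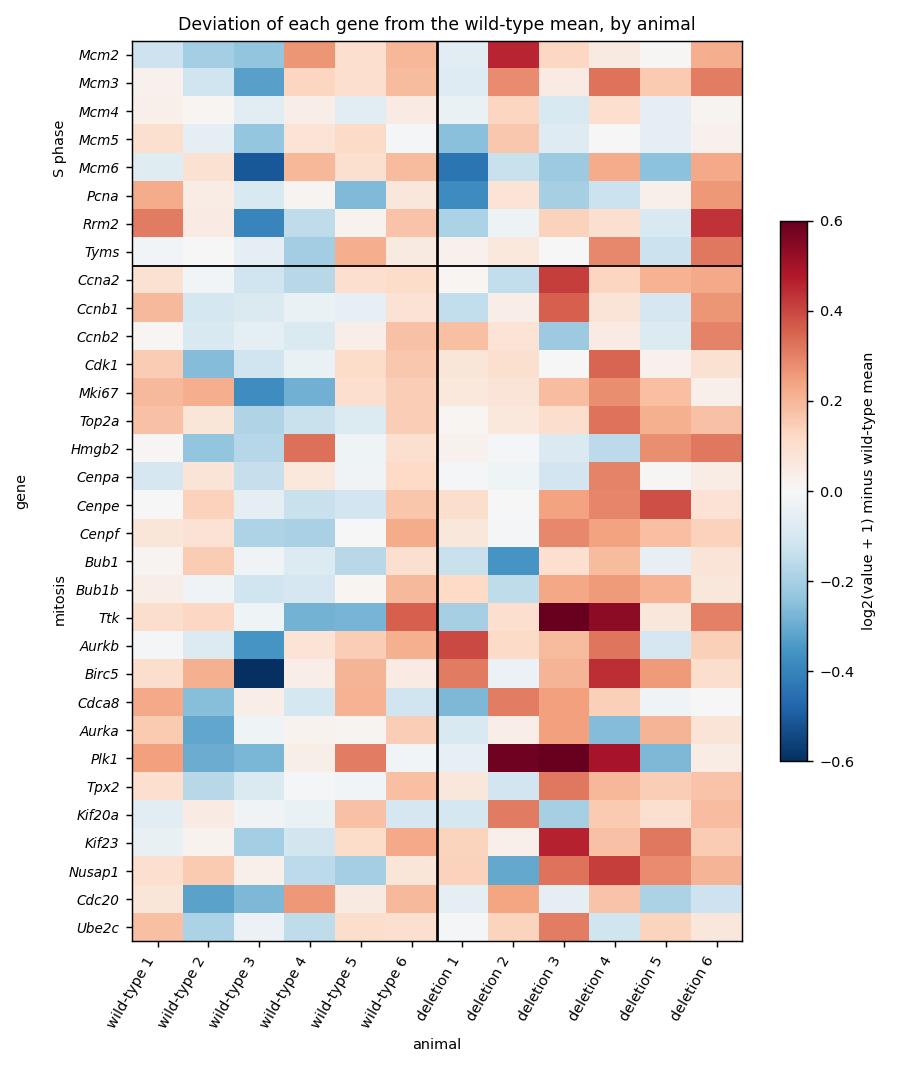
Deviation of each of the 32 genes from its wild-type mean in each animal, in log2(value + 1) units, with S phase genes above the horizontal line and the deletion animals right of the vertical line. Red is above and blue below the wild-type mean, and the column of wild-type animal 3 (median -0.12) is the bluest.

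Summed over genes, S phase and mitosis differed in how the animals ranked. The 8 S phase genes summed to 2711 ± 199.7 normalized counts in the wild-type animals (2363 to 2890.4) and to 2723 ± 291 in the deletion animals (2308 to 3120.5), a difference of 0.458% of the wild-type mean. Deletion animal 1 held the lowest S phase sum of the 12 and deletion animal 6 the highest. The 24 mitosis genes summed to 7409 ± 564 (6559 to 8107) and 8056 ± 424 (7508 to 8500.2), a difference of 8.74%. Wild-type animal 3 held the lowest mitosis sum, and deletion animals 3 to 6 lay above the wild-type range. The groups overlapped in both sums.

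Other genes of replication and mitosis were taken from wider lists, which were chosen with earlier results of these data known. Of 44 tested further replication genes, 0 were called by limma, edgeR or DESeq2. At an unadjusted limma p under 0.05, 3 were higher and 0 lower (6.82%, against 4.39% of all tested genes). The median log2 fold change of the 44 was 0.05. The smallest p values were those of Clspn, a mediator of the replication checkpoint, at 68.1 ± 13.2 and 88.7 ± 16.9 (limma adjusted p = 0.955, log2 0.38), and of Chaf1b, a subunit of the histone chaperone of replicating DNA, at 50.3 ± 12.7 and 64.8 ± 7.503 (limma adjusted p = 0.955, log2 0.38). Of 74 tested further mitosis genes, 0 were called by any of the 3 tools, but 12 were higher and 1 lower at an unadjusted limma p under 0.05 (17.6%, against 4.39% of all tested genes). By edgeR 13 and by DESeq2 11 of the 74 passed unadjusted in either direction. Over all tested genes, edgeR gave 2.25% higher and 2.05% lower, and DESeq2 2.17% higher and 2.05% lower. The log2 fold change of the 74 was above 0 in 67 genes, with a median of 0.14.

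The further mitosis genes with the smallest p encode partners in the NDC80 complex, which binds kinetochores to microtubules. Ndc80 was at 80.1 ± 12.9 and 105.5 ± 15.4 (log2 0.40, limma adjusted p = 0.730), with 5 of 6 deletion animals above the wild-type range. Nuf2 was at 98.2 ± 11.9 and 123 ± 12.6 (log2 0.33, limma adjusted p = 0.732), and its groups did not overlap, the only such gene of the 74, against 0.629% of all tested genes. The 1 gene that was lower was Pttg1, the securin that holds back separase (log2 -0.19, limma adjusted p = 0.918). The number of these 74 genes higher at an unadjusted p dropped from 12 to 4 without wild-type animal 4 and to 6 without wild-type animal 3, deletion animal 3 or deletion animal 4, and it was 7 without deletion animal 5. Genes measured in the same animals are not separate observations.

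Regulators of entry into and arrest of the cycle gave 0 called of 44 tested by any of the 3 tools and 1 with an unadjusted limma p under 0.05 (2.27%, against 4.39% of all tested genes). That was Ccnd1, the cyclin D1 of the G1 phase, at 971.5 ± 153 and 1176 ± 171 (log2 0.28, limma adjusted p = 0.955). Its relative Ccnd2 had a log2 fold change of -0.17 (limma adjusted p = 0.955). Replication-dependent histones, which are made in S phase, went the other way in sign: 43 of 52 tested genes were below 0, with a median of -0.08, and 0 were called by limma, edgeR or DESeq2. None of the 52 passed an unadjusted p of 0.05 by any of the 3 tools. The smallest p values belonged to Hist2h2ab (log2 -0.57, limma adjusted p = 0.955) and Hist1h4b (log2 -0.41, limma adjusted p = 0.955). The histone sum varied 2.04-fold between libraries, from 27569 in wild-type animal 2 to 56198 in wild-type animal 4, and was between 34067 and 47326 in the deletion animals. Hist2h2be, a histone made by sensory neurons independently of division, had the highest normalized count of that list, at 6475 to 11363. Many histone genes are near-identical copies, so the counts of single histone genes depend on how shared reads were assigned. The panels of summed levels show the histone spread beside that of the cell cycle genes.

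**Figure D4:**
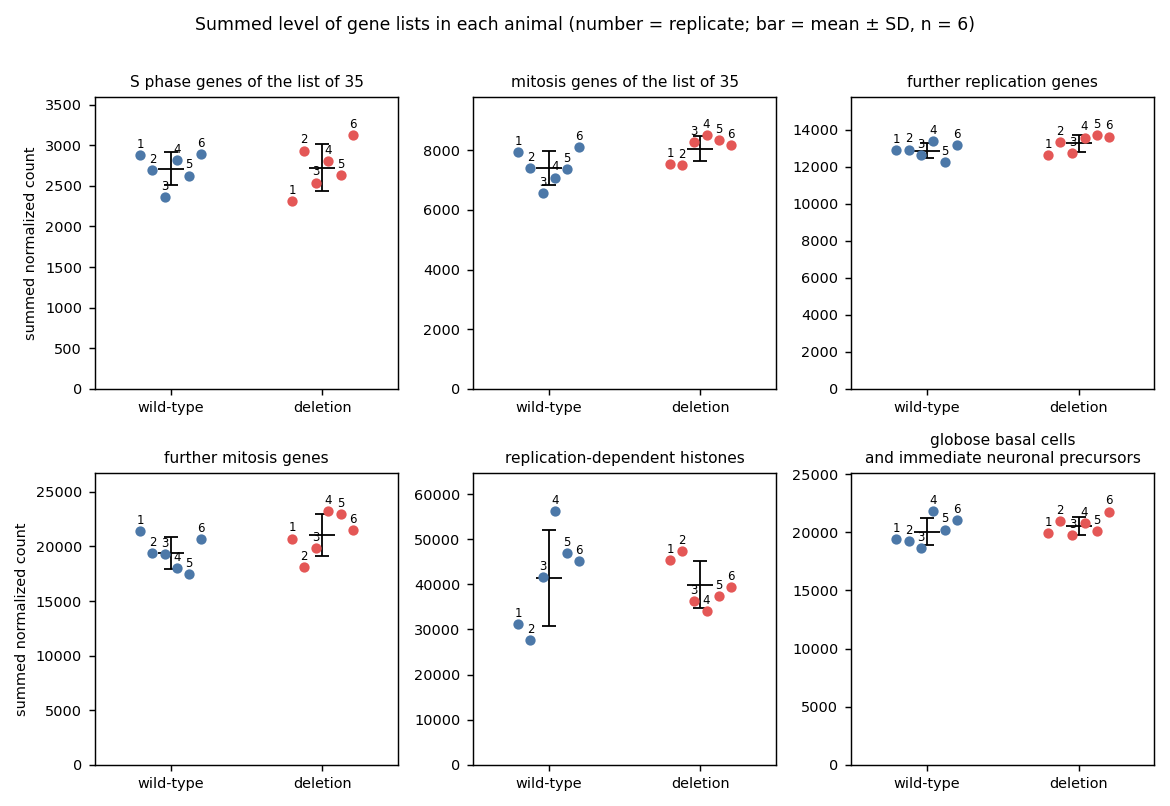
Summed normalized counts per animal for 6 gene lists, with axes from 0, points numbered by replicate and bars at mean ± SD (n = 6). The groups overlap in every panel, and the histone sums of the wild-type animals span 27569 to 56198, wider than those of any cell cycle panel.

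Markers of the cells that could divide or carry these transcripts were summed in the same libraries. The 14 globose basal and precursor markers ran from 18657 to 21799.8 in the wild-type and from 19744 to 21784 in the deletion animals, with 10 of 14 log2 fold changes above 0 and a median of 0.07. Neurod1, a factor of immediate neuronal precursors, was at 351.5 ± 53.0 and 409.8 ± 35.9 (log2 0.23, limma adjusted p = 0.955), and the receptor Kit had a log2 fold change of 0.15. The 8 horizontal basal markers had a median of -0.08, with Krt17 at -0.26 and Krt5 at -0.19. In all the marker lists, 0 genes were called by limma, edgeR or DESeq2, and no marker found in the table was at 0 in all libraries. Among the markers at an unadjusted limma p under 0.05 were Neurod1, higher in the deletion animals, and Krt17, Cyp1a2, Muc2, Cd74 and Esam, all lower. Over all tested genes, 2.02% passed that limma threshold higher and 2.37% lower.

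Blood-forming cells also divide. Of 12 erythroid markers found, 7 passed the filter, and 6 of these 7 were above 0, with a median of 0.26. Klf1, an erythroid transcription factor, had a log2 fold change of 0.52 (limma adjusted p = 0.955). Its level was low, at 10.1 ± 3.05 and 15.2 ± 5.98 normalized counts. The erythroid sum overlapped, at 2064 to 3152 and 2167 to 2956. The mean of that sum went the other way, at 2719 in the wild-type and 2637 in the deletion animals. All 7 tested neutrophil markers were below 0, with a median of -0.27, S100a9 at -0.31 and S100a8 at -0.30. Their sum was 3618 to 10212 in the wild-type and 3467 to 9493 in the deletion animals. B-lineage markers summed to 3827 to 5105 and 3789.5 to 4999, with Vpreb3 at -0.17 and Ebf1 at 0.03, but only 2 of the 11 found passed the filter. Ebf1 averaged 4287 in the wild-type animals, against 4456 for the whole B-lineage sum, so that sum was mostly 1 gene. Whether the Ebf1 reads came from B-lineage cells was not tested. Markers of T and NK cells summed to 22.9 to 52.5 and 24.6 to 108.5, with Lck at 0.10 and Cd4 at -0.08. The part of these cells in the levels of the cell cycle genes was not tested.

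The remaining tissue markers were mostly slightly lower in the deletion animals. For mature sensory neurons the median was -0.04, with Umodl1 at -0.13 and Cngb1 at -0.06. Sustentacular markers had a median of -0.06, with Cyp1a2 (log2 -0.21, limma adjusted p = 0.955) and Muc2 (log2 -0.37, limma adjusted p = 0.955) lower at an unadjusted p. Respiratory markers had a median of 0.03, with Muc5b at -0.25 and Reg3g at 0.17. Macrophage markers had a median of -0.06, with Cd74 at -0.25 and Csf1r at -0.16. Endothelial markers had a median of -0.17, with all 7 tested below 0 and Esam at -0.39 and Egfl7 at -0.33. Those of bone, cartilage and fibroblasts had a median of -0.11, with Col1a1 at -0.24 and Lum at -0.11.

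Correlations between genes, taken over the animals, were higher at the median among pairs of S phase genes than among pairs of mitosis genes. After the group means were removed, the Pearson correlation over the 12 animals had a median of 0.53 over the 28 pairs of S phase genes, all 28 of them positive. It had a median of 0.23 over the 276 pairs of mitosis genes, 0.24 between the phases and 0.00 over all pairs of tested genes. Over all 496 pairs of the 32 genes it was 0.25, with 384 positive. The highest pairs were Bub1 with Nusap1 (0.93), the helicase subunits Mcm3 with Mcm6 (0.87), and Aurka with Ube2c (0.86). The lowest were Mcm2 with Nusap1 (-0.66) and Cenpa with Ube2c (-0.63). These genes share libraries, depth and dissection, and the values describe these 12 animals.

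The S phase sum followed that of the globose basal and precursor markers over the 12 animals with r = 0.70 (Spearman 0.69, and r = 0.61 without the 2 animals farthest from the median). It had as high a correlation with the markers of respiratory and ciliated epithelium (0.72, 0.66 and 0.58). The mitosis sum had 0.23, 0.15 and -0.30 with the basal and precursor markers. For the licensing genes alone the correlation was 0.86 with the basal and precursor markers and 0.70 with the respiratory markers. The basal and precursor sum weighs its highest genes most. Of its wild-type mean of 20057, Neurod1 gave 351.5 and Kit 377. Which cells carried that sum was not tested. The mitosis sum followed the further mitosis genes (r = 0.62, Spearman 0.76, and 0.77 without 2 animals), and ran opposite to the histones (-0.43, -0.56 and -0.71). With the markers of bone, cartilage and fibroblasts it had r = 0.69 (0.62 and 0.43), with the erythroid markers 0.51 (0.70 and 0.48), and with mature sensory neuron markers -0.49 (-0.49 and -0.50). The S phase and mitosis sums themselves had r = 0.51 (Spearman 0.35). Without the 2 animals farthest from the median of the S phase sum, r was -0.02, so it depended in part on them. The matrix of list correlations gives these values by role.

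**Figure D5:**
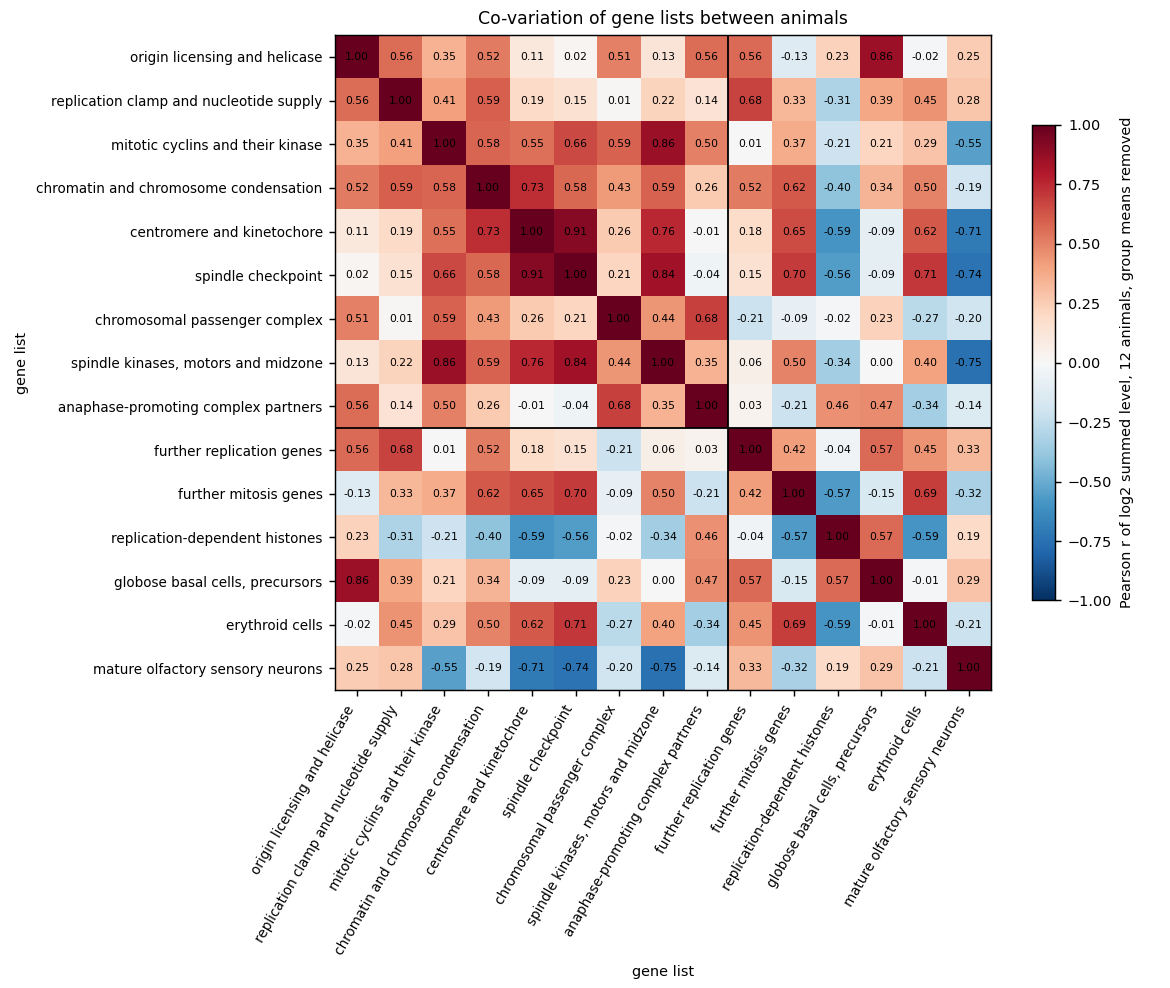
Pearson correlation over 12 animals, group means removed, of the log2 summed level of 9 role groups of the cell cycle genes and 6 other lists, separated by the black lines. Red is positive and blue negative. The licensing genes reach 0.86 with the globose basal and precursor markers, and the spindle and checkpoint groups are negative with the mature sensory neuron markers.

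Long genes deviated from short ones in some libraries. Of the 32 genes, 4 had over 8 kb of exon (Mki67, Top2a, Cenpe and Cenpf), all 4 above 0 with a median log2 fold change of 0.15, against -0.01 over the 2548 tested genes of that class. The 15 genes of 4 to 8 kb had a median of 0.11, against -0.01 over 5851. The 11 genes of 2 to 4 kb had 0.06, against -0.02 over 5635, and the 2 genes of 1 to 2 kb had 0.02, against -0.03 over 2273. Wild-type animal 4 was highest in genes of up to 1 kb (median deviation 0.15) and lowest in those over 8 kb (-0.08), while wild-type animal 2 was the reverse (-0.10 and 0.07). Without wild-type animal 4 and deletion animal 3, a choice made after seeing the data, the median over the 32 genes was 0.08, and it was 0.06 without wild-type animals 3 and 4. The part of gene length in the differences was not tested further.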

How the data were processed

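Total RNA libraries (ribodepleted, stranded, per the labels' protocols) came from 6 wild-type and 6 deletion olfactory mucosae. STAR 2.6.0, DESeq2 and the build GRCm38.p6 are named in the submitters' processing notes, with the counting tool not given in the sources used here. In 1 table the authors deposited signal values, that is, reads per gene over each library's size factor. All values (100%, tolerance 0.01 read) were whole multiples of 1 read's value, so whole reads were recovered. The deposited table also holds the authors' log2 fold change (wild-type over deletion), p-value and adjusted p-value, printed only where named, and a Wald score that was not used. The table ends within a row: 39395 complete rows, ordered by the authors' adjusted p, were used and 1 was left out, where the last complete row has an authors' p of 0.921. Mcm7, Kif11 and Prc1 have no row among them. GENCODE M21 gave positions and exon lengths for 39318 rows.

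The 12 libraries, grouped by genotype, were compared with limma 3.58.1 (R 4.3.3; mean-variance trend, robust) on log2(value + 1), two-sided, with Benjamini-Hochberg adjustment over the 17320 genes that passed edgeR 4.0.16 filterByExpr (minimum count 10), and a threshold of 0.05. The design named edgeR for raw counts and limma for normalized values, so edgeR and DESeq2 1.42.0 on recovered reads were alternatives, beside scaling, pseudocount, filter, replicate block and left-out libraries. Depth ran from 10091239 to 18612011 reads. The fits were checked on simulated counts. Given in full are, in each of the 9 role groups, the gene with the highest mean and the gene with the smallest p, and the 2 genes of smallest p are given for each wider list. A marker gene that this rule names is not reported here. The genes and lists were chosen with earlier results of these data known. Mki67 and Plk1 values beyond that rule were chosen after their values were seen. The labels give no litter. P-values judge the difference between the groups against the spread between these animals.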

Additional observations from a re-analysis of the deposited data

Results flagged for a closer look

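In 120 sets of 6 values (each gene and each summed list in each group), 6 held an animal far from the other 5 of its group, and chance alone flags about 6 of 120. Among the cell cycle genes, deletion animal 4 had 267 normalized counts of Cdk1, against 209 to 223 in the other deletion animals. The same animal had 158 of Cenpa, against 118 to 132. Wild-type animal 3 had 45.0 of Birc5, against 71.0 to 80.2 in the other wild-type animals. Among the marker sums, deletion animal 4 had 9493 normalized counts of neutrophil markers, against 3467 to 5451. Deletion animal 3 had 172331 of sustentacular markers, against 193496 to 205395, and 108.5 of T and NK cell markers, against 24.6 to 51.6.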

How the results depend on the processing

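Over 23 alternatives to the reported fit, 0 of the 32 genes and 0 genes of the wider replication, mitosis, regulator and histone lists were called in either direction, and the smallest adjusted p of any of the 32 genes in any alternative was 0.436. The number of genes with a log2 fold change above 0 stayed between 25 (without deletion animal 4) and 30 (without deletion animal 1). The median log2 fold change lay between 0.08 (without wild-type animal 3) and 0.13 (without wild-type animal 5) when 1 library was left out, and at 0.11 by edgeR, DESeq2 and TMM scaling. With no filter on low values it was still 0.10, but the median of all genes was then 0.13 in place of -0.01. The log2 ratio of summed levels, deletion over wild-type, with 1 library left out ran from 0.06 to 0.12 for all genes, from -0.04 to 0.05 for S phase genes and from 0.09 to 0.15 for mitosis genes.

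The log2 fold change changed sign in 10 genes and kept it in 22. With 1 library left out, Mcm4 ran from -0.015 to 0.030, Mcm5 from -0.078 to 0.011, Pcna from -0.12 to 0.0098, Rrm2 from -0.020 to 0.12, Cenpa from -0.019 to 0.063, Bub1 from -0.071 to 0.037, Aurka from -0.026 to 0.095 and Cdc20 from -0.067 to 0.049. Without deletion animals 2 and 3, Bub1 was 0.021, Cdca8 -0.038 and Aurka -0.017. Cdc20 was 0.0023 by DESeq2, 0.0020 by edgeR and 0.0065 with TMM scaling. In alternatives added after the data were seen, Rrm2 was -0.078 and Mki67 -0.029 without wild-type animals 3 and 4, and Aurka was -0.0022 and Cdc20 0.060 without wild-type animal 4 and deletion animal 3. The causes were not tested.

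Same-numbered animals did not deviate together (correlations of -0.24 to -0.01, 0 of 6 over 0.1, and 0 libraries closest to their own number). These correlations cannot exclude a pairing by litter, since the labels give no litter. With the replicate block, 0 genes were called, 27 were above 0 with a median of 0.10, and the number with an unadjusted p under 0.05 was 0. Among the further mitosis genes it was 7 with the block. Depth limits Ttk most, with 39 reads in the library where it had fewest, wild-type animal 4. The 3 listed genes not analysed here leave the counts of 35 incomplete. The deposited table is ordered by the authors' adjusted p, which is 0.999 in its last complete row. Any gene cut off after that row would be among those the authors found least changed.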
